A study of Mus musculus with 10 samples.

Results

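The genes described here encode the collagens of Descemet membrane, the thick basement membrane on which the corneal endothelium sits. They are the 2 chains of collagen VIII (Col8a1 and Col8a2) and the 6 chains of collagen IV (Col4a1 to Col4a6). They were chosen by name and make up 8 of the 55450 genes in the count table, and all 8 were among the 17729 genes with enough counts to be tested. RNA came from peelings of the corneal endothelium of C57BL/6 mice at postnatal week 12, either Slc4a11-/- (KO) or Slc4a11+/+ (WT), with no other allele or agent given in the labels. There were 5 libraries per genotype, each from a pool of 6 peelings of 3 animals, named here by genotype and number. The spread between libraries is therefore a spread between pools. The comparison of KO with WT asked how these transcripts differ when Slc4a11, a membrane transporter mutated in congenital hereditary endothelial dystrophy, is missing in every cell.

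Collagen VIII is a short-chain collagen that the corneal endothelium secretes and that builds the hexagonal lattice of Descemet membrane. Mutations of human COL8A2 cause an early-onset form of Fuchs endothelial corneal dystrophy. Collagen IV is the network-forming collagen of all basement membranes. Its chains assemble into trimers of fixed makeup: Col4a1 with Col4a2, which is present in nearly every basement membrane, Col4a3 with Col4a4 and Col4a5, which replaces it in a few mature membranes such as that of the kidney glomerulus, and Col4a5 with Col4a6. Mutations of the human counterparts of Col4a3, Col4a4 and Col4a5 cause Alport syndrome, in which the eye can be affected. The 6 collagen IV genes lie in head-to-head pairs, so that the genes of a pair are transcribed away from each other from neighbouring starts.

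The arrangement of the starts is shown first, because the chains of a pair are compared below. In GRCm38, Col4a1 (ENSMUSG00000031502.11, chromosome 8, 11198423 to 11312826, minus strand) and Col4a2 (ENSMUSG00000031503.13, chromosome 8, 11312805 to 11449287, plus strand) overlap by 22 bases at their first exons. Col4a4 (ENSMUSG00000067158.9, chromosome 1, 82448423 to 82586849, minus strand) and Col4a3 (ENSMUSG00000079465.8, chromosome 1, 82586921 to 82722059, plus strand) are 71 bases apart. Col4a6 (ENSMUSG00000031273.16, chromosome X, 141165403 to 141474076, minus strand) and Col4a5 (ENSMUSG00000031274.16, chromosome X, 141475385 to 141689234, plus strand) are 1308 bases apart. The collagen VIII genes have separate loci, Col8a1 (ENSMUSG00000068196.5) on chromosome 16 from 57624258 to 57754737 on the minus strand and Col8a2 (ENSMUSG00000056174.8) on chromosome 4 from 126286793 to 126314330 on the plus strand. RefSeq promoter entries of GRCm38.p6 matched 7 of the 8 genes by symbol. The overlap (chr8:11312805-11312826) and the gap between Col4a4 and Col4a3 (chr1:82586850-82586920) are given on the plus strand. The others are bases just upstream of the start on the gene's own strand, for Col4a5 (chrX:141475169-141475384), Col4a6 (chrX:141474077-141474326), Col8a1 (chr16:57754738-57754987) and Col8a2 (chr4:126286544-126286792). Capitals mark any match, on either strand, to the GC box GGGCGG, the CCAAT box CCAAT, the E-box CACCTG or the TATA box TATAAA.
Col4a1-Col4a2 overlap: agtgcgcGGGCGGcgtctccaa
Col4a4-Col4a3 gap: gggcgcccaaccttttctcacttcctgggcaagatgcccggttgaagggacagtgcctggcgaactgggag
Col4a5 upstream: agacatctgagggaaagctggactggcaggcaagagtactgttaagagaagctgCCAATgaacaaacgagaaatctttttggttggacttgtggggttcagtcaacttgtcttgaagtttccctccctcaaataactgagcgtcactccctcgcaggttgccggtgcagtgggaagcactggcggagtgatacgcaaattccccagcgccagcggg
Col4a6 upstream: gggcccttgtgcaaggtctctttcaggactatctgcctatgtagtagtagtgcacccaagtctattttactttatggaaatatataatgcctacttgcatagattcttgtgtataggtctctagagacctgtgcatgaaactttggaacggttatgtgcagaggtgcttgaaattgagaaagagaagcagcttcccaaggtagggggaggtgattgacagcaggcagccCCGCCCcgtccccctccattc
Col8a1 upstream: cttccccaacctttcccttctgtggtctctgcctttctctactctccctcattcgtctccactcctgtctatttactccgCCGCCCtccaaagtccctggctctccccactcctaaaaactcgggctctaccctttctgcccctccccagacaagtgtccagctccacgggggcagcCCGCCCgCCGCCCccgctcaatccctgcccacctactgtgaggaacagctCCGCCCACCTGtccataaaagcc
Col8a2 upstream: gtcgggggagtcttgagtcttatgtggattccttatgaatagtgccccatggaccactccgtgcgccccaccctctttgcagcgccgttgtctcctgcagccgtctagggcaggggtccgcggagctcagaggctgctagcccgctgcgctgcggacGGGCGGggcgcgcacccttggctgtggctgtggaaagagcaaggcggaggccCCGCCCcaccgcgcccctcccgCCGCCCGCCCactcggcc

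The sequence between Col4a4 and Col4a3 held none of the 4 motifs and was 62.0% G or C. Among 32851 promoter entries, the 71 bases before the start held a GC box in 20.7%, a CCAAT box in 13.3%, the E-box in 4.7% and a TATA box in 4.4%. The Col8a1 and Col8a2 windows each held 4 GC boxes, a motif found at least once in 32.7% of windows of 250 bases and in the same share of windows of 249. In the Col8a2 window 2 of these overlap each other, and in the Col8a1 window the last overlaps the E-box CACCTG, which 17.2% of windows of 250 bases hold. The Col4a5 window held 1 CCAAT box (30.8% of windows of 216 bases) and the Col4a6 window 1 GC box. The 22 bases shared by Col4a1 and Col4a2 held 1 GC box, against 7.2% of windows of that length. Those windows lie just upstream of a start, while the shared bases lie within the first exons, so the positions differ. A match describes these letters only and was not tied to any factor.

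Total counts per library ranged from 36026193 to 51008996. Slc4a11 fell to 2.52% of its WT level in KO, from 3489 to 4357 CPM in WT libraries to between 70.08 and 114.1 CPM in KO libraries, where CPM is the count relative to TMM-scaled library size. Epithelial marker transcripts summed to 60.1 to 230 CPM in WT, to 61.5 in KO 3 and 263 in KO 4, and to 684, 2250 and 4330 CPM in KO 2, KO 1 and KO 5. Of the 17 markers of corneal endothelium 16 were tested, and 1 was higher and 5 were lower in KO, with Slc4a11 itself among the lower. That is 37.5% called, against 15.3% of all tested genes. The sum of the 16 markers other than Slc4a11 was 15500 to 18000 CPM in KO and 15500 to 18100 in WT. Most of this sum came from Aqp1 (mean 11490 CPM in WT and 12240 in KO), so it says little of the other markers. Keratocyte markers summed to 70500 to 108000 CPM in WT and 74200 to 99200 in KO. Vascular endothelial markers summed to 450 to 528 CPM in WT and 418 to 515 in KO, nearly all from Erg and Kdr, while the defining markers Pecam1 and Cdh5 reached at most 2.5 and 2.1 CPM in any library. Of the 11 vascular markers tested 2 were higher and 1, Kdr, was lower, with a median log2 fold change of 1.03. Over all tested genes 15.3% were called and the median was 0.00. Lens markers, listed because the lens capsule is a thick collagen IV membrane, summed to 303 to 385 CPM in WT and 288 to 406 in KO, nearly all from Cryab, and Lim2 had no count. The sums for WT and KO were 286 to 362 and 268 to 314 CPM for pericytes and smooth muscle, 864 to 1200 and 1020 to 1350 for trabecular meshwork, 286 to 447 and 357 to 567 for macrophages and 12.1 to 18.3 and 13.8 to 25.7 for pigment cells.

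The Descemet collagens were among the most abundant transcripts of the peelings. Together the 8 genes took 1.48% to 1.72% of all counts in WT libraries and 1.30% to 1.76% in KO libraries. Per kilobase of exon, the scale on which genes can be compared, Col8a2 was highest at 1640 ± 96 CPM per kb in WT (SD, n = 5), rank 34 of the 17729 tested genes. Col8a1 followed at 229 ± 21 CPM per kb, so that Col8a2 stood 7.17 times higher than its partner chain. Col4a1 (202 ± 9.9 CPM per kb) and Col4a3 (200 ± 35) came next and did not differ beyond their spread, with Col4a1 the higher in 3 of 5 WT libraries. Col4a2 (144 ± 3.2) and Col4a4 (143 ± 15) were likewise level with each other, and both lay below Col4a3 in every WT library. Col4a5 stood at 88.4 ± 9.9 and Col4a6, the lowest, at 56.3 ± 4.8 CPM per kb. Col8a1 was above Col4a1 in all 5 WT libraries although the ranges over libraries overlapped. Col4a5, which joins Col4a3 and Col4a4 in their trimer, lay below both of them in all 5 WT libraries. The order depended in part on the length used, since the longest coding transcript in place of the exon union put Col4a3 (233 CPM per kb) above Col4a1 (228) and Col4a4 (150) above Col4a2 (148).

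**Figure D1:**
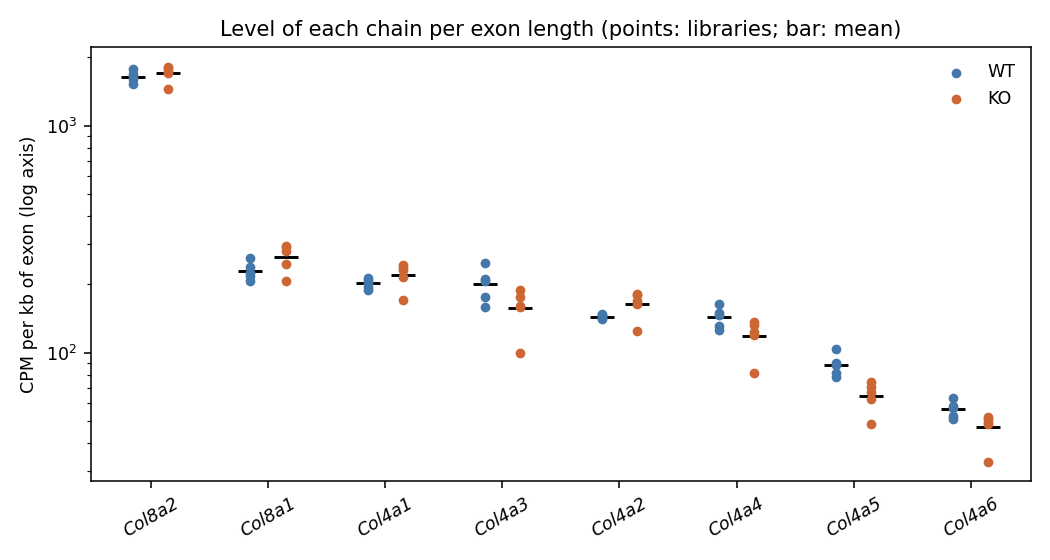
Level of each chain in CPM per kb of exon (log axis), ordered by the WT mean, with each library as a point and the group mean as a bar (WT blue, KO orange, n = 5 each). Col8a2 stands 7.17 times above Col8a1 in WT, and Col4a5 and Col4a6 are lowest in both genotypes.

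Against WT, Col4a5 was the only one of the 8 collagen genes called in KO, and it fell. The remaining 7 did not pass, at an adjusted p under 0.05 over all tested genes by the quasi-likelihood test of edgeR. Over all tested genes 15.3% were called, 7.73% lower and 7.59% higher. The log2 fold changes split by chain: Col8a1, Col8a2, Col4a1 and Col4a2 had positive values between 0.05 and 0.20, and Col4a3 to Col4a6 negative ones between -0.45 and -0.27. The median over the 8 genes was -0.11, against 0.00 over all tested genes.

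Col4a5, the chain shared by the Col4a3-containing and the Col4a6-containing trimers, was at 527.0, 605.7, 697.8, 546.5 and 593.8 CPM in WT 1 to WT 5. KO 1 to KO 5 had 498.5, 475.9, 451.4, 418.9 and 326.7 CPM. Every KO library lay below every WT library, which was true of 6.16% of the tested genes, while 5.88% had every KO library above every WT library, as none of the collagens did. The mean fell from 594.2 ± 66.4 to 434.3 ± 67.0 CPM (SD, n = 5 each), a log2 fold change of -0.45 (SE 0.11, edgeR adjusted p = 0.019). The call held with KO limited to KO 3 and KO 4, whose epithelial sums were smallest (-0.44, edgeR adjusted p = 0.049), a fit that called 5.99% of all tested genes. It was lost with the epithelial markers as a covariate (-0.41, edgeR adjusted p = 0.11) and with the vascular markers as one (-0.32, edgeR adjusted p = 0.46). The tested markers of these lists themselves had median log2 fold changes of 3.16 and 1.03, so these covariates can carry part of the difference between genotypes. Col4a5 and Col4a6 lie on the X chromosome, and the sex makeup of the pools varied, with Ddx3y, a Y-linked gene, at 22.7 to 93.3 CPM in WT and 17.7 to 78.9 in KO. With the level of Ddx3y as a covariate the log2 fold change of Col4a5 was -0.43 (edgeR adjusted p = 0.0091).

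Col4a6, its head-to-head partner, was at 418.3, 454.1, 503.2, 406.4 and 463.1 CPM in WT 1 to WT 5 and at 408.2, 395.0, 413.7, 384.9 and 263.9 CPM in KO 1 to KO 5. The ranges overlapped, KO 5 stood far below the other KO libraries, and the gene was not called (log2 fold change -0.27, SE 0.11, edgeR adjusted p = 0.13). Without KO 5 its log2 fold change was -0.16.

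Col4a3, the chain that carries the autoantigen of Goodpasture disease, was at 1585, 2095, 2480, 1757 and 2056 CPM in WT 1 to WT 5. KO 1 to KO 5 had 1759, 1581, 1877, 1598 and 991.8 CPM. Only KO 2 and KO 5 lay below every WT library, and the difference was not called (log2 fold change -0.35, SE 0.16, edgeR adjusted p = 0.16). Col4a4, its partner in the trimer and across the shared gap, was at 1336, 1546, 1727, 1388 and 1577 CPM in WT and at 1400, 1272, 1445, 1307 and 862.5 CPM in KO, in the same order of libraries. It showed the same picture, with 3 KO libraries below every WT library and no call (log2 fold change -0.27, SE 0.13, edgeR adjusted p = 0.17). Without KO 5 these values were -0.22 for Col4a3 and -0.16 for Col4a4.

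Col4a1 and Col4a2, the chains of the trimer found in nearly every basement membrane, had higher values than WT in all KO libraries but KO 5. Col4a1 was at 1414, 1516, 1550, 1454 and 1600 CPM in WT 1 to WT 5 and at 1819, 1607, 1780, 1719 and 1276 CPM in KO 1 to KO 5. Col4a2 was at 957.8, 928.3, 938.8, 965.9 and 981.5 CPM in WT and at 1189, 1085, 1198, 1118 and 824.4 CPM in KO. For each gene 4 KO libraries stood above every WT library and KO 5 stood below every one. Neither was called with all libraries (log2 fold change 0.12, SE 0.09, edgeR adjusted p = 0.40 for Col4a1, and 0.18, SE 0.09, edgeR adjusted p = 0.20 for Col4a2). Col4a2 was called higher without KO 5, at a log2 fold change of 0.27 (edgeR adjusted p = 0.011).

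Col8a1, the lower of the collagen VIII chains, was at 1619, 1709, 1860, 1752 and 2038 CPM in WT 1 to WT 5 and at 2307, 1920, 2280, 2195 and 1624 CPM in KO 1 to KO 5. KO 1, KO 3 and KO 4 were above every WT library, KO 2 and KO 5 within the WT range, and the gene was not called (log2 fold change 0.20, SE 0.10, edgeR adjusted p = 0.20). Col8a2, the dystrophy gene, was at 7572, 7179, 6829, 7311 and 7981 CPM in WT and at 8031, 7814, 7620, 8142 and 6489 CPM in KO. Its log2 fold change was the smallest of the 8 (0.05, SE 0.08, edgeR adjusted p = 0.72), and KO 5 was again the lowest library.

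**Figure D2:**
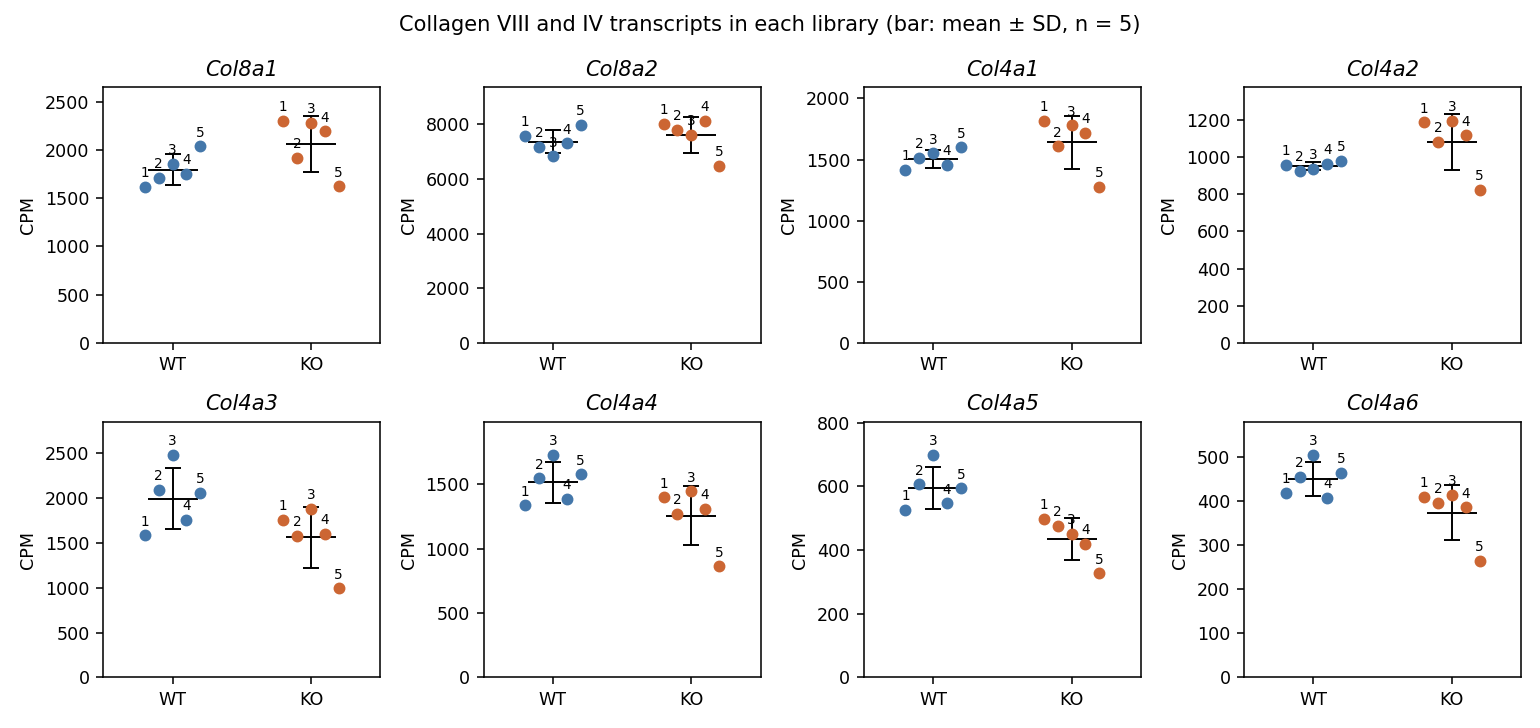
CPM of each collagen gene in every library, numbered within genotype, with the mean and SD of 5 libraries as a bar. Col4a5 alone shows no overlap between WT (527.0 to 697.8 CPM) and KO (326.7 to 498.5 CPM), and KO 5 is the lowest KO library for all 8 genes.

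Several library measures moved with these values. KO 5 was the lowest KO library for all 8 genes and the one with the most epithelial transcripts. Among KO libraries it also had the lowest sum of corneal endothelium markers other than Slc4a11 (15500 CPM). WT 3 had the same sum, yet the highest WT values of Col4a3 (2480 CPM), Col4a4 (1727), Col4a5 (697.8) and Col4a6 (503.2). Its Col8a2 value was the lowest in WT (6829 CPM). With genotype means removed, the mean log2 CPM of these 16 markers had an r of 0.58 (Col4a5) to 0.86 (Col4a2) with the collagens over the 10 libraries, and the epithelial markers of -0.64 (Col4a2) to -0.23 (Col4a5), as a description of libraries that share depth and composition. Long transcripts as a class were also low in KO 5. These were the 1457 genes at a mean of at least 10 CPM whose longest coding transcript was 6 kb or more. Their median deviation from the KO mean was -0.27 on the log2 scale in KO 5, against 0.02 to 0.14 in the other KO libraries. In the comparison of KO with WT these long genes had a median log2 fold change of -0.14, with 13.9% called lower and 2.13% higher, while the 2006 genes under 2 kb had a median of 0.08, with 4.49% lower and 11.9% higher. All 6 collagen IV genes fall in the long class, with longest coding transcripts from 6.45 kb (Col4a2) to 10.1 kb (Col4a4). The collagen VIII transcripts measured 5.11 kb (Col8a1) and 4.33 kb (Col8a2).

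The median deviation of the long genes, here without genotype means removed, was -0.05 to 0.20 in WT and -0.33 to 0.07 in KO. It entered the fit as a covariate, an alternative chosen after the data had been seen. Because it differs between genotypes, this fit also takes up part of the difference of KO from WT in long genes, the collagen IV genes included. The signs stayed, but the negative values of 3 chains came close to 0 and the calls changed. Col8a1 (0.36, edgeR adjusted p = 0.020), Col4a1 (0.26, edgeR adjusted p = 0.038) and Col4a2 (0.31, edgeR adjusted p = 0.024) were then called higher. Col4a5 was at -0.26 and not called (edgeR adjusted p = 0.053), and Col4a3, Col4a4 and Col4a6 were between -0.07 and -0.04. The part of epithelial content and of transcript length in the single-gene differences was not tested beyond these fits.

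**Figure D3:**
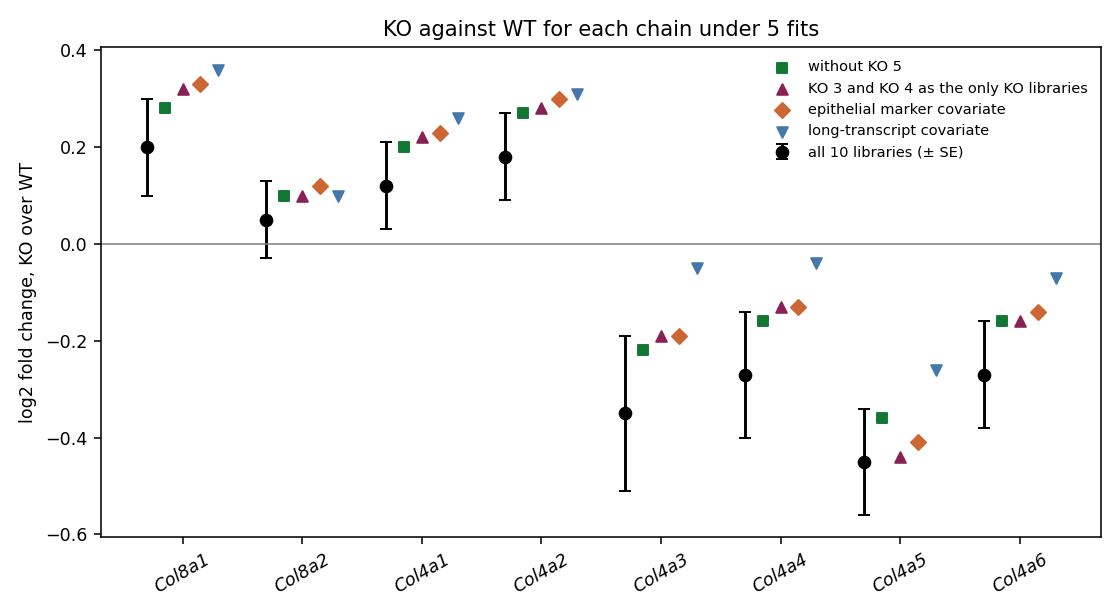
Log2 fold change of KO over WT for each chain with all 10 libraries (black, with SE) and under 4 other fits. Col8a1, Col8a2, Col4a1 and Col4a2 are above 0 and Col4a3 to Col4a6 below 0 in all 5 fits drawn, while the size of each value moves with the fit.

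The balance between chains was compared within each library, where the scaling of the library cancels. Of 6 ratios set up for this, 2 differed between genotypes. The first was the ratio of Col4a3 and Col4a4 to Col4a1 and Col4a2, in counts per kb, which was 0.853, 1.04, 1.18, 0.901 and 0.979 in WT 1 to WT 5 and 0.729, 0.734, 0.773, 0.71 and 0.612 in KO 1 to KO 5. Every KO library was below every WT library. The mean log2 ratio was -0.02 ± 0.18 in WT and -0.50 ± 0.13 in KO (SD, n = 5 each), a change by a factor of 0.722. The exact permutation test of the 10 libraries, two-sided, gave p = 0.00794, the smallest it can give, and 0.0238 after Benjamini-Hochberg adjustment over the 6 ratios. KO 3, with epithelial transcripts within the WT range, was at 0.773. The Col4a3 and Col4a4 transcripts are longer than those of Col4a1 and Col4a2, so transcript length differs between the sides of this ratio.

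The second was Col4a5 to Col4a6, whose longest coding transcripts are 6.54 and 6.65 kb. It was 1.5, 1.58, 1.65, 1.6 and 1.52 in WT 1 to WT 5 and 1.45, 1.43, 1.29, 1.29 and 1.47 in KO 1 to KO 5, again with no overlap. The mean log2 ratio went from 0.65 ± 0.06 to 0.47 ± 0.09 (SD, n = 5 each; exact permutation p = 0.00794, adjusted p = 0.0238). Relative to Col4a6, Col4a5 was thus lower in KO by a factor of 0.883.

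A further ratio was chosen after the data had been seen, because its chains have transcripts of like length (6.45 to 6.62 kb). Col4a5 to Col4a1 and Col4a2 together was 0.235, 0.263, 0.297, 0.239 and 0.244 in WT 1 to WT 5 and 0.175, 0.187, 0.160, 0.156 and 0.165 in KO 1 to KO 5. The WT and KO libraries did not overlap, and KO was at 0.661 times the WT ratio, which is given as a description with no test because it was chosen with the values of its chains known. KO 5, low for each of these genes, was in the middle of the KO libraries on this ratio.

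The other 4 ratios did not pass. Col8a1 to Col8a2 was 0.123, 0.136, 0.156, 0.137 and 0.146 in WT and 0.165, 0.141, 0.172, 0.155 and 0.143 in KO (exact permutation p = 0.0952, n = 5 each, adjusted p = 0.143). Col4a1 to Col4a2 had a mean of 1.40 in WT and 1.34 in KO and Col4a3 to Col4a4 of 1.39 and 1.31, with adjusted p = 0.167 for each by the same exact permutation test. Collagen VIII to all collagen IV chains went from 2.25 to 2.57 (exact permutation p = 0.0714, n = 5 each, adjusted p = 0.143). As shares of the 6 collagen IV chains per kb, Col4a1 and Col4a2 made up 41.7% ± 2.7 in WT and 50.0% ± 1.8 in KO, Col4a3 and Col4a4 41.0% ± 2.5 and 35.5% ± 1.9, and Col4a5 and Col4a6 17.3% ± 0.43 and 14.5% ± 0.67 (SD, n = 5 each). In bulk RNA a shift of this kind cannot tell fewer cells of a type from less RNA per cell.

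**Figure D4:**
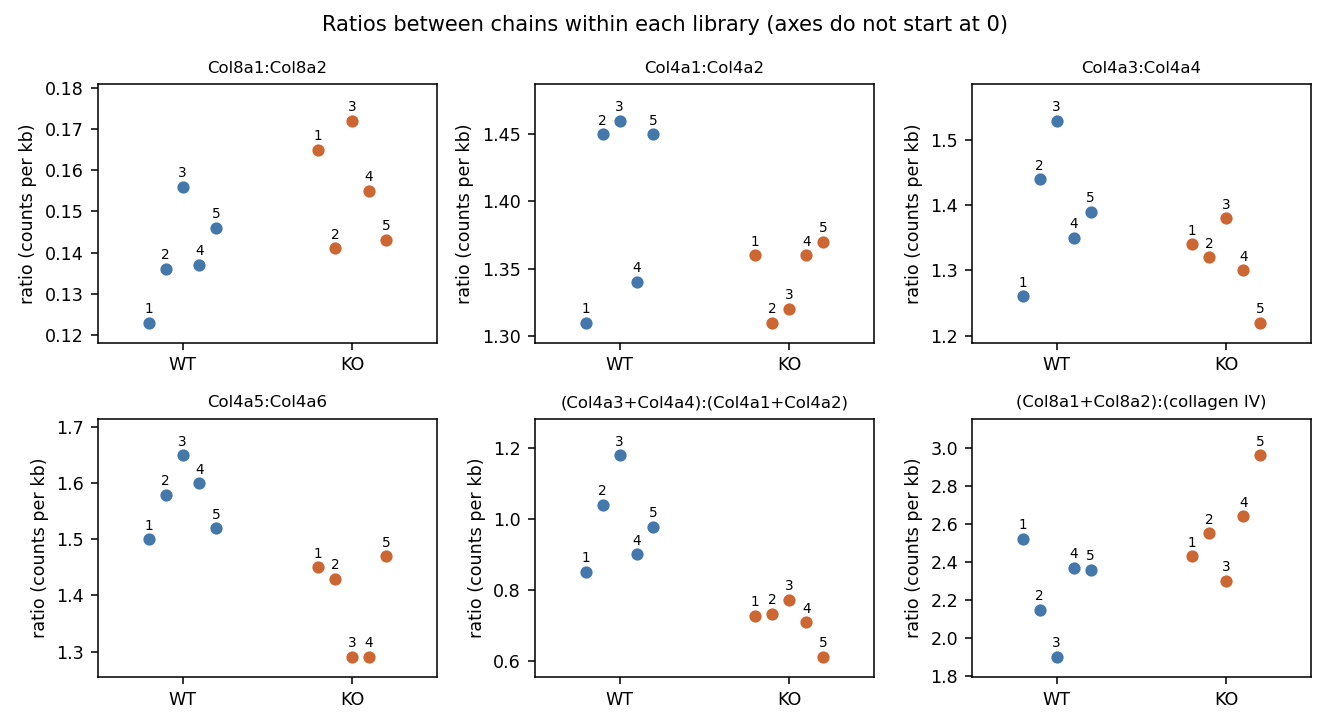
Ratio between chains in counts per kb within each library, numbered within genotype (axes do not start at 0). The WT and KO libraries do not overlap for Col4a5 to Col4a6 (1.5 to 1.65 against 1.29 to 1.47) and for Col4a3 and Col4a4 to Col4a1 and Col4a2 (0.853 to 1.18 against 0.612 to 0.773).

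From pool to pool the collagen IV chains varied together, within pairs and across them. With each genotype's mean removed, log2 CPM of Col4a3 and Col4a4 correlated over the 10 libraries with r = 0.99 and rho = 0.92 (permutation p = 2e-05 and 0.00049, adjusted over 4 pairs p = 8e-05 and 0.0015). Col4a5 and Col4a6 had r = 0.93 and rho = 0.90 (permutation p = 1e-04 and 0.00076, adjusted p = 2e-04 and 0.0015). Leaving out the 2 libraries farthest from the median, KO 5 with WT 1 or WT 3, left r at 0.97 and 0.86. Col4a1 and Col4a2 had r = 0.93 and rho = 0.78 (permutation p = 0.00088 and 0.010, adjusted p = 0.0012 and 0.014), but r was 0.63 without KO 5 and KO 1 (permutation p = 0.081), so this relation rests in part on those libraries. Col8a1 and Col8a2 had r = 0.70 and rho = 0.61 (permutation p = 0.023 and 0.066, adjusted p = 0.023 and 0.066), and r was 0.17 without KO 5 and WT 5, so that relation rests on those 2 libraries. High values were not limited to genes with neighbouring starts: over the 12 pairs of collagen IV genes that are not head to head r was 0.72 to 0.99, with 0.99 for Col4a4 and Col4a6 and 0.96 for Col4a1 and Col4a4. Over the 12 pairs of a collagen VIII with a collagen IV gene r was 0.43 to 0.95, highest for Col8a1 with Col4a1.

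The same measure, with genotype means removed, named the genes whose deviations over the 10 libraries were most like those of each collagen. It was taken among 9040 other genes at a mean of at least 10 CPM, as a description of these libraries. Nearest to Col4a1 were Met, the hepatocyte growth factor receptor (r = 0.99), and Rgp1 (0.97). Nearest to Col4a2 were Best3 (0.98), Tmem56 (0.98) and the giant cadherin Fat1 (0.97). Ckap5, a microtubule-binding protein, and Ptprd, a receptor tyrosine phosphatase, were each at 0.98 or 0.99 with both Col4a3 and Col4a4, and the third for each was Zfp292 (0.99) and the calcium channel Itpr3 (0.99). Col4a5 was nearest to Ints2, Adamtsl3 (0.99 each) and Pds5b (0.98), and Col4a6 to the glutamate receptor Grm8 (0.99), Ckap5 and Tsc2 (0.97 each). Col8a1 was nearest to the importin Ipo13 (0.99), Thsd4 (0.97) and Crim1 (0.96), and Col8a2 to Cds2, Armh4 (0.93 each) and the potassium channel Kcnj15 (0.92). With genotype means left in, r was 0.32 for Ipo13, 0.60 for Rgp1, 0.70 for Thsd4, and 0.68 and 0.67 for Ptprd with Col4a3 and Col4a4. For Kcnj15, at a mean of 19.2 CPM in WT and 9.76 in KO, it was 0.09. The other genes named here were at 0.86 to 0.99. The part of depth, transcript length and KO 5 in these values was not tested.

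Among the genes that modify and export collagen, the prolyl 4-hydroxylase subunits P4ha1, P4ha2 and P4ha3 and the lysyl hydroxylase Plod2 fell. Of 30 such genes tested, 6 fell, 3 rose and 21 did not pass, with a median log2 fold change of -0.04 against 0.00 over all tested genes. Called genes made up 30% of the list, against 15.3% of all tested genes. This and the other partner lists were chosen with earlier results of these data known. Their shares called are therefore given as a description only. The falls were mostly hydroxylases, but not all hydroxylases fell. Lysyl hydroxylases Plod1 (-0.23) and Plod3 (-0.11) were not called, and prolyl 3-hydroxylases P3h1 and P3h2 rose. Plod2, a lysyl hydroxylase, was at 76.57, 91.58, 88.78, 69.17 and 80.17 CPM in WT 1 to WT 5 and at 42.94, 41.76, 45.04, 42.27 and 37.09 CPM in KO 1 to KO 5. No library overlapped, and Plod2 fell by 0.96 on the log2 scale (SE 0.08, edgeR adjusted p = 2.0e-05). P4ha2, a catalytic subunit of prolyl 4-hydroxylase, which makes the hydroxyproline that stabilises the triple helix, was at 111.1 ± 12.9 CPM in WT and 56.58 ± 6.43 in KO (SD, n = 5) and fell by 0.97 on the log2 scale (SE 0.09, edgeR adjusted p = 5.8e-05). The other catalytic subunits fell as well, P4ha1 by 0.44 and P4ha3 by 0.57 on the log2 scale.

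Loxl4, a lysyl oxidase, fell by 0.69 and Colgalt2, a collagen galactosyltransferase, by 0.38, but Colgalt2 was no longer called in the fits that left out WT 4, WT 5 or any of the first 4 KO libraries (-0.46 to -0.28 over all single libraries left out). The genes that rose were Creb3l1, a transcription factor for collagen secretion, by 0.84 (SE 0.12), and the prolyl 3-hydroxylases P3h2 by 0.71 (SE 0.14) and P3h1 by 0.20 (SE 0.05). The call of P3h1 was lost in the fits that left out WT 2, WT 3, WT 5, KO 1 or KO 4 (0.18 to 0.23). The collagen chaperone Serpinh1 was at 1029 ± 123 CPM in WT and 1098 ± 48.6 in KO and P4hb, the beta subunit of prolyl 4-hydroxylase, at 845.2 ± 82.9 and 935.5 ± 17.9, and neither was called. With KO limited to KO 3 and KO 4, 5 genes of this list fell and 2 rose, where 5.99% of all tested genes were called. P4ha1, P4ha3, Plod1, Plod3, Loxl4, Colgalt2 and P3h1 were named after their values were seen.

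Other proteins of the basement membrane were mixed, with 4 of 22 higher, 3 lower, 15 not passed and a median of -0.05. That is 31.8% called, against 15.3% of all tested genes. Lamb1, a laminin beta chain, was at 52.74 ± 3.58 CPM in WT and 31.52 ± 4.62 in KO (SD, n = 5), with no overlap, and fell by 0.74 on the log2 scale (SE 0.09, edgeR adjusted p = 0.00034). Fn1, fibronectin, fell from 1749 ± 129 to 1265 ± 220 CPM, also without overlap, although it was not called with KO limited to KO 3 and KO 4 (-0.35, edgeR adjusted p = 0.11). Agrn, the heparan sulfate proteoglycan agrin, fell by 0.46 and was not called without WT 2 or WT 3 (-0.53 to -0.38 over all single libraries left out). With KO 3 and KO 4 alone Agrn was not called either (-0.36, edgeR adjusted p = 0.20). Tinagl1, a matricellular protein of basement membranes, was at 80.78 ± 5.27 CPM in WT and 110.4 ± 16.5 in KO and rose by 0.45 on the log2 scale (SE 0.10, edgeR adjusted p = 0.0095). Lama3, a laminin chain of epithelial basement membranes, rose from 0.121 to 1.08 CPM. It was highest in KO 5 (2.53 CPM), the library with the most epithelial transcripts, and was not called with KO 3 and KO 4 alone (1.61). Col18a1, the collagen XVIII chain, rose by 0.89 to 4.81 CPM, and was not called with KO 3 and KO 4 alone (0.63). Sparc, a collagen-binding protein and the most abundant member, was at 7832 ± 1230 CPM in WT and 8489 ± 613 in KO and was not called. With KO 3 and KO 4 alone 1 gene of this list rose and 1 fell, where 5.99% of all tested genes were called. Agrn and Col18a1 were named after their values were seen.

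Genes listed as receptors changed in both directions, with 3 of 13 higher, 3 lower, 7 not passed and a median of -0.06. The share called was 46.2%, against 15.3% of all tested genes. The list also holds receptors of laminins and of other collagens. Those not passed were Itga1, Itga2, Itga10, Ddr1, Ddr2, Dag1 and Adgrg6. Itgb1, the beta subunit of the collagen-binding integrins, was at 815.1 ± 37.6 CPM in WT and 678.2 ± 41 in KO (SD, n = 5) and fell by 0.27 on the log2 scale (SE 0.06, edgeR adjusted p = 0.014), and Itga11, an alpha subunit for fibrillar collagens, fell by 0.56 (SE 0.11). Neither had overlapping groups. With KO 3 and KO 4 alone neither was called, at values of like size (-0.32, edgeR adjusted p = 0.070 for Itgb1, and -0.59, edgeR adjusted p = 0.062 for Itga11). Itga6, a laminin-binding subunit, fell by 0.21, but missed the threshold when KO 2, KO 4, KO 5, WT 4 or WT 5 was left out (-0.23 to -0.17 over all single libraries left out). Itga3, a laminin-binding subunit, rose from 178.3 ± 9.79 to 228.9 ± 33.4 CPM but was not called without WT 3, KO 1 or KO 4 (0.32 to 0.44 over all single libraries left out). Adgrg1, an adhesion receptor for collagen III, rose by 1.07 (SE 0.19) to 7.77 CPM. Itgb4, the integrin subunit of hemidesmosomes, rose by 1.12 (SE 0.33), but was not called without KO 2 or without any one of the WT libraries (0.67 to 1.27). Its value was 0.35 with KO 3 and KO 4 alone (edgeR adjusted p = 0.18) and 0.18 with the vascular covariate. With that covariate only Adgrg1 of this list kept its call (edgeR adjusted p = 0.046). The collagen receptor Ddr2 was at 489.2 ± 29.4 CPM in WT and 447.9 ± 63.9 in KO and was not called. Itga6, Itgb4 and the genes not passed other than Ddr2 were named after their values were seen.

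Among 12 tested proteases that cut collagen IV or related matrix and their inhibitors, 3 rose, 4 fell and 5 did not pass, with a median of 0.11. In all 58.3% of them were called, against 15.3% of all tested genes, in a list chosen with earlier results of these data known. Reck, a membrane inhibitor of metalloproteinases, was at 77.82 ± 4.43 CPM in WT and 57.26 ± 5.93 in KO (SD, n = 5), with no overlap, and fell by 0.44 on the log2 scale (SE 0.07, edgeR adjusted p = 0.0022). Adamts1, a matrix protease, fell by 0.88 (SE 0.16) and Timp2, a soluble inhibitor, by 0.41 (SE 0.09), while Timp3, the most abundant inhibitor, was at 2465 ± 251 CPM in WT and 2608 ± 315 in KO and was not called. Mmp2, a gelatinase that cuts collagen IV, fell by 0.36 and was not called when WT 1, WT 4, WT 5 or any KO library except KO 5 was left out (-0.43 to -0.28). Mmp3, stromelysin, rose from 26 ± 11 to 84.1 ± 50.7 CPM, highest in KO 2 and KO 5, and was not called without WT 3 (1.43 to 1.93). Mmp15, a membrane-bound metalloproteinase, rose from 1.10 ± 0.295 to 2.69 ± 1.11 CPM, a log2 fold change of 1.28 that was 0.69 and not called with KO 3 and KO 4 alone. The inhibitor Timp1 rose by 0.62 but lost its call in every fit with a library left out except those without WT 4, WT 5 or KO 3 (0.51 to 0.74 over all single libraries left out). With KO 3 and KO 4 alone 1 gene of this list fell and none rose, where 5.99% of all tested genes were called. Adamts1 was then at -0.73 and Timp2 at -0.48. Mmp2 and Timp1 were named after their values were seen.

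Of 8 genes tied to dystrophies of the posterior cornea or to the risk of Fuchs dystrophy, 4 had enough counts, 1 fell and 3 did not pass, with a median of -0.14. The share called of those tested was 25%, against 15.3% of all tested genes. Atp1b1, which encodes a sodium pump subunit, fell by 0.32 (SE 0.08, edgeR adjusted p = 0.016), and was not called with KO 3 and KO 4 alone (-0.24). Zeb1, a transcription factor whose human counterpart is mutated in posterior polymorphous dystrophy, was at 93.4 ± 5.21 CPM in WT and 83.3 ± 5.40 in KO (SD, n = 5; log2 fold change -0.17, SE 0.06, edgeR adjusted p = 0.080), which did not pass. Zeb1 was named after its value was seen. Tcf4, also not called, was at 500.3 ± 25.1 and 461.3 ± 45 CPM.

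**Figure D5:**
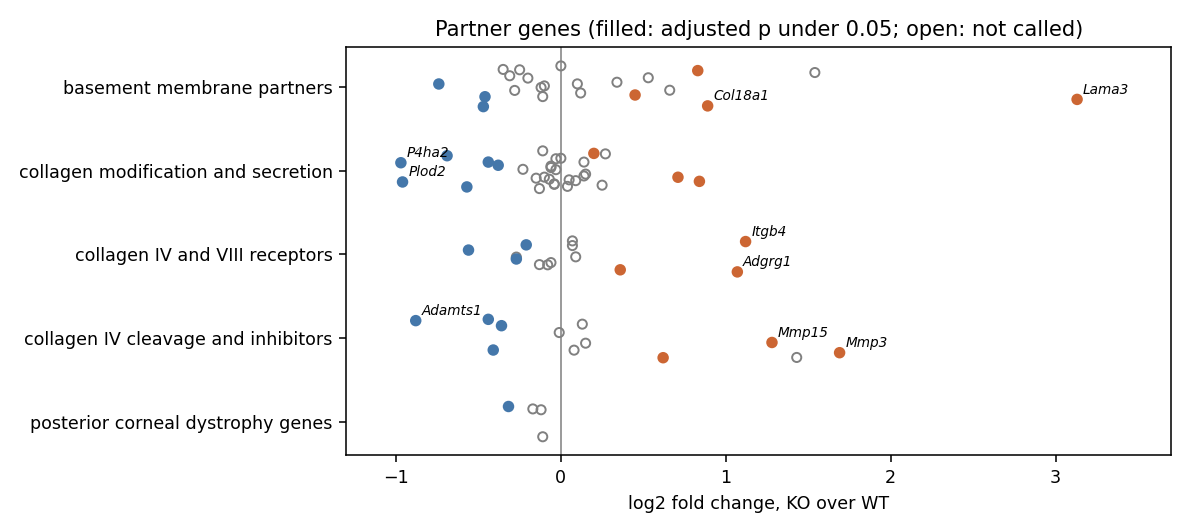
Log2 fold change of KO over WT for the tested genes of the 5 partner lists, filled where called (edgeR adjusted p under 0.05; orange higher, blue lower) and open where not. Plod2 and P4ha2 lie near -1 in the list of collagen modification and secretion, and called genes occur on both sides of 0 in 4 of the 5 lists.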

How the data were processed

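The authors deposited raw counts for each gene in each library. Per the submitters' processing notes the tools were HISAT2 2.1.0 with GRCm38.p6, Subread 1.6.4 with featureCounts, cutadapt 2.4 and Trim Galore 0.6.4. How strand and multi-mapped reads were handled, and which annotation was counted, was not given in the sources used here. Per the labels' protocols, polyadenylated RNA was selected from 100 ng of total RNA with an integrity number over 7, with a stranded kit and 12 PCR cycles, so transcripts that are long or partly degraded can be undercounted. All 55450 identifiers matched GENCODE vM21, which gave symbols, coordinates and lengths. No opposite-strand gene above 3.19 CPM in WT overlaps a collagen other than the 22 bases between Col4a1 and Col4a2.

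Differences in counts were tested in R 4.3.3 with the quasi-likelihood test of edgeR 4.0.16. Genes passed filterByExpr (minimum count 10 and total 15), scaling was by TMM, and Benjamini-Hochberg adjustment was over 17729 genes. The same fit was run on simulated counts, drawn independently for each gene at a single dispersion. That simulation had no uneven epithelial content, no shift with transcript length and no outlying library, so it cannot speak to them. The common biological coefficient of variation was 16.3%, and at 263.9 CPM or more, the spread between pools limits the precision of the collagens. Ratios used counts per kb of exon union with 0.5 added to each count. Correlations used 100000 permutations. Within a group, every 2 libraries differed by more than sampling noise (chi-square divided by its degrees of freedom, 14.4 to 86.3). The labels do not say that replicate numbers pair pools, and same-numbered pools did not deviate together.

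Named genes were the 8 collagens and genes from each partner list. From each list these were the 2 called genes of lowest p on either side and the 2 most abundant genes. The 3 genes most correlated with each collagen, with genotype means removed, were also named. The members and lists were chosen with earlier results of these data known. Alternatives used other scalings, DESeq2 1.42.0, limma-voom (limma 3.58.1), the robust fit, other filters, a replicate block, marker covariates and libraries left out. The Ddx3y and long-transcript covariates, the fit without both KO 5 and WT 3 and the further ratio were chosen only once the data had been seen. Some genes that the rule or the lists include are not reported here.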

Additional observations from a re-analysis of the deposited data

Results flagged for a closer look

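Col4a6 in KO 5 stood at 263.9 CPM, apart from the other KO libraries at 384.9 to 413.7 CPM. The gap to the nearest library was 0.808 of the range of the KO group, above the 95% critical value of Dixon's test for 5 samples. Of 28 groups of 5 looked at (8 genes and 6 ratios in each genotype) this was the only one past that value. Chance flags about 1 in 20, and these groups share libraries. KO 5 was the lowest KO library for all 8 genes, so its low place was not particular to Col4a6.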

How the results depend on the processing

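Directions of all 8 collagens were the same under all 27 other settings. One of these, the adjusted p under 0.01, changes no fitted value, so its directions could not differ. Some values came near 0, as Col8a2 at 0.02 without WT 3 and Col4a4 at -0.04 with the long-transcript covariate. Col4a5 lost its call at an adjusted p under 0.01 and with the epithelial, vascular or long-transcript covariate, each giving 0 collagens lower. The count of collagens higher, 0 with all libraries, was 3 with the long-transcript covariate and 1 without KO 5 and WT 3. Leaving out single libraries gave 0 to 1 higher and 1 lower. The partner lists had 13 genes higher and 17 lower, and 5 and 8 with the epithelial covariate, 2 and 3 with the vascular one, 5 and 7 with KO limited to KO 3 and KO 4, 4 and 8 at an adjusted p under 0.01, and 7 and 11 with the long-transcript covariate. Over all tested genes the counts went from 1346 and 1370 to 562 and 656, 167 and 222, 527 and 578, 450 and 574, and 815 and 894 in the same order. The partner lists had 8 higher without KO 5 and WT 3, where 784 of all tested genes were higher. With single libraries left out the lists had 7 to 16 higher and 14 to 18 lower. All tested genes then had 836 to 1532 higher and 965 to 1666 lower. With the vascular covariate Mmp3 (-0.14) and Timp1 (-0.04) changed direction. The partner genes still called in that fit were Tinagl1, Adgrg1, Plod2, P4ha2 and P4ha3. Those that lost their call included Lamb1, Fn1, Creb3l1, P3h2, P4ha1, Reck and Adamts1. The cause of these changes was not tested.

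The log2 ratio of Col4a5 to Col4a6 changed by -0.28 with KO 3 and KO 4 only, where the exact permutation test cannot go below p = 0.0952, and by -0.18 without KO 5 and WT 3. That of Col4a3 and Col4a4 to Col4a1 and Col4a2 changed by -0.35 without KO 5 and WT 3, and both then had adjusted p = 0.0857 by the exact permutation test, with fewer samples. With single libraries left out, the changes of these ratios were -0.20 to -0.15 and -0.52 to -0.41, both still past the threshold, and that of Col4a5 to Col4a1 and Col4a2, with no test, was -0.63 to -0.54. The correlations of Col8a1 with Col8a2 and of Col4a1 with Col4a2 were 0.17 and 0.63 without the 2 farthest libraries. With the longest coding transcript as length, WT levels were 352 CPM per kb for Col8a1, 228 for Col4a1, 148 for Col4a2 and 67.5 for Col4a6.

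With the replicate number as a block, Col4a5 was at -0.46 (edgeR adjusted p = 0.041) and the counts over all genes were 750 higher and 941 lower. Same-numbered pools correlated at -0.52 to 0.06 and 0 of 5 WT pools matched best with their own number. No pairing by number was seen in these values, which cannot show how the pools were prepared.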
